A study of Tursiops truncatus with 17 samples.

Results

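The interferon response genes are a set of 38 gene names covering the receptors that detect viral RNA, the transcription factors that carry the interferon signal and the antiviral proteins they induce. A member was the row of the deposited tables whose gene name equalled one of these names. RIGI is the newer symbol of DDX58, so the 38 names stand for 37 genes. Of the 21265 genes in the tables, 31 were members, and no name had several rows. No row carried the names IFIT2, IFIT3, IFI44, IFI44L, RIGI, OAS3 or USP18. The RIGI gene was read from the DDX58 row, and the other 6 genes were not analysed here. GBP2 had a row and no reads, which left 30 members with reads. Of these 30, 28 passed the filter on low counts and were tested; IFI6, with 95 reads over all libraries, and DDX58, with 52, did not.

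The samples were pieces of cerebral cortex from 17 bottlenose dolphins (Tursiops truncatus), each sequenced as 1 messenger RNA library. The non-bloom group held 8 dolphins and the bloom group 9, the submitters' names for the 2 collection seasons. Every dolphin was labelled wild type, and the tissue of both groups was frozen archive material from necropsies. No sex, age, infection status or batch was given, so season cannot be told apart from a batch or an illness that went with it. Dolphins are numbered by order of deposition within each season.

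Interferons are secreted proteins that cells release when receptors in the cytoplasm or endosomes detect viral nucleic acid. Type I interferon binds a receptor whose kinases phosphorylate STAT proteins such as STAT2, which acts with IRF9 to switch on a large group of antiviral genes. Neurons, astrocytes, microglia and vessel cells of the brain can all respond, and most of these genes are known to run low in uninfected cortex. In bulk tissue, fewer cells of a type and less RNA per cell cannot be told apart.

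The libraries held 7680050 to 15635292 reads. Non-bloom libraries were deeper, at 13992634 ± 1193481 reads (SD, n = 8) against 11079035 ± 1668681 (SD, n = 9) in bloom (two-sided exact permutation test, adjusted p = 0.00271 over 12 measures of the libraries). Mitochondrial transcripts took 9.68% to 22.1% of reads in non-bloom and 1.47% to 77.2% in bloom, where bloom 9 (77.2%), bloom 5 (57.0%) and bloom 6 (33.5%) stood apart. Neuron, astrocyte and oligodendrocyte markers were expressed in every library, as the tissue label says. The summed level of neuron markers was lower in bloom (adjusted p = 0.0126) and that of oligodendrocyte markers higher (adjusted p = 0.0476, both by two-sided exact permutation tests). All levels below are deposited values in CPM, reads scaled to a common library size, and 1 read was worth up to 0.571, in bloom 9. Gene lengths were not given, so levels of single genes are compared between dolphins and not between genes.

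Only 2 of the 28 tested members passed the test between the seasons. HERC6 was higher and CMPK2 lower in bloom, by limma on log2(value + 1) with Benjamini-Hochberg adjustment over all genes. These 2 members are 7.14% of those tested, beside 9.16% of all 13548 genes tested, so the share of members called was near the background. By direction, limma called 4.47% of all genes higher and 4.69% lower. The log2 difference, bloom minus non-bloom, was positive in 13 members and negative in 15. Its median was -0.058, beside -0.0034 over all genes tested. An unadjusted p under 0.05 was reached by 3 members, beside 35.4% of all genes. In 0 members did the ranges of the seasons fail to overlap, beside 0.657% of all genes. edgeR on the recovered reads called 1 member, HERC6, where it called 8.29% of all genes and 6.1% higher. DESeq2 called 5 members (HERC6, CMPK2, TRIM25, OAS2 and RSAD2), where it called 23.4% of all genes, 14.4% higher and 9.04% lower. The default settings of DESeq2 replace outlying counts in groups of this size, and which counts were replaced was not examined.

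**Figure D1:**
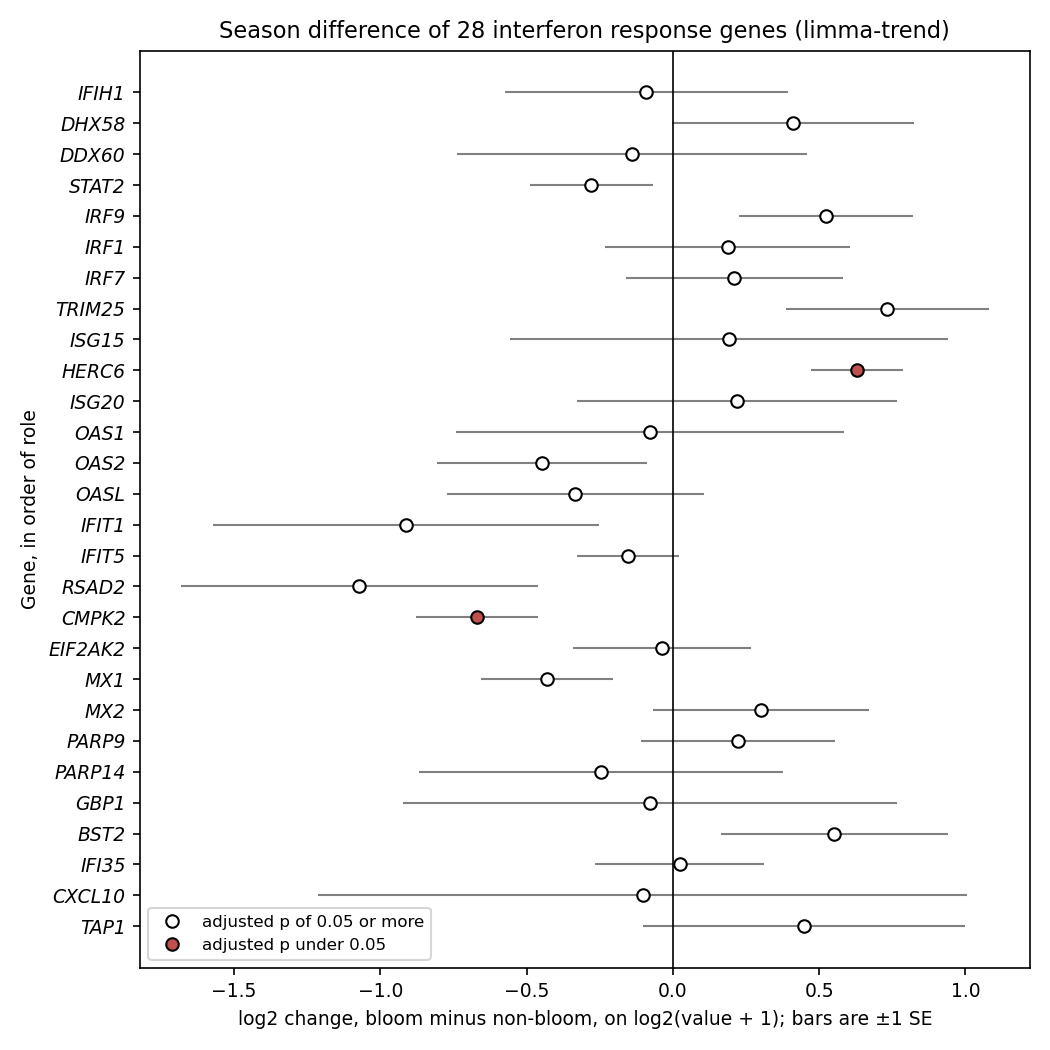
The plot of season differences gives, for each of the 28 interferon response genes tested, the log2 difference of bloom minus non-bloom on the log2(value + 1) scale with bars of 1 standard error, the genes ordered by role and those passing in red. Only HERC6 at 0.63 and CMPK2 at -0.67 passed, and the widest error belongs to CXCL10 (1.11).

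HERC6 is a relative of the enzyme that attaches ISG15 to other proteins. It spanned 21238 to 65916 of GeneScaffold_1534 in the coordinates of the tables (build: not given in the sources used here). Its non-bloom values were 1.91, 2.15, 1.54, 1.62, 1.00, 2.23, 1.20 and 2.25 in dolphins 1 to 8. In bloom they were 2.86, 2.84, 3.30, 3.09, 4.98, 3.15, 3.93, 3.42 and 1.71 in dolphins 1 to 9. Every bloom dolphin except bloom 9 lay above every non-bloom dolphin, and the value of bloom 9 rested on 3 reads. The mean was 1.74 ± 0.477 (SD, n = 8) in non-bloom and 3.25 ± 0.879 (SD, n = 9) in bloom, a log2 difference of 0.63 (SE 0.16, adjusted p = 0.0323 by limma). Among the tested members HERC6 also had the smallest SD within groups on the log2(value + 1) scale, 0.287. That scale narrows the spread of low values such as these.

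The HERC6 call held by edgeR (adjusted p = 0.0268), by DESeq2 (adjusted p = 0.000518) and without bloom 9 (limma, adjusted p = 0.0122). It was lost with the neuron marker level as a covariate (log2 difference 0.53, limma adjusted p = 0.370), a fit in which few of all genes passed. It was also lost when any 1 of non-bloom 1, 2, 5, 6, 7 or 8 or of bloom 2, 5, 6 or 7 was left out, where the limma adjusted p reached 0.0640.

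CMPK2, a mitochondrial nucleotide kinase induced by interferon, moved the other way. Its values were 54.6, 64.9, 74.8, 50.7, 63.7, 82.2, 48.9 and 69.7 in non-bloom dolphins 1 to 8. In bloom dolphins 1 to 9 they were 62.9, 42.8, 44.5, 48.4, 20.3, 22.8, 55.2, 48.4 and 29.1. The lowest were bloom 5, 6 and 9, the dolphins with the highest mitochondrial share, while bloom 1 and bloom 7 lay inside the non-bloom range. The mean was 63.7 ± 11.8 (SD, n = 8) in non-bloom and 41.6 ± 14.6 (SD, n = 9) in bloom, a log2 difference of -0.67 (SE 0.21, adjusted p = 0.0498 by limma).

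Without bloom 5, 6 and 9 the log2 difference of CMPK2 was -0.32 and did not pass (limma, adjusted p = 0.157). It did not pass by edgeR (adjusted p = 0.0606), nor with the neuron marker level as a covariate (-0.23, limma adjusted p = 0.645), where few of all genes passed. Nor did it pass when any 1 dolphin other than bloom 1, 4 or 8 was left out (limma, adjusted p up to 0.0953).

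CMPK2 lies beside RSAD2, which encodes viperin, an antiviral enzyme. On scaffold_110373 CMPK2 spanned 87964 to 101813 and RSAD2 109694 to 121819, with 7880 bases between them, and the RefSeq annotation of the mTurTru1.mat.Y assembly also lists them as neighbouring coding genes. RSAD2 was 0.874, 4.60, 11.1, 0.998, 1.69, 1.27, 1.61 and 40.1 in non-bloom dolphins 1 to 8. The bloom values, dolphins 1 to 9, were 0.913, 0.594, 1.32, 0.739, 1.39, 0.242, 16.4, 0.461 and 0. Non-bloom 8, bloom 7 and non-bloom 3 stood above the rest in RSAD2, whereas the highest CMPK2 value was 1.62 times the median over all dolphins. The SD within groups on the log2 scale was 1.39 for RSAD2 and 0.446 for CMPK2. The RSAD2 difference was -1.07 (SE 0.61, adjusted p = 0.21 by limma). It was -1.57 by edgeR (adjusted p = 0.218) and -1.82 by DESeq2 with its default replacement of outlying counts (adjusted p = 0.0104).

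Among the RNA receptors, IFIH1 encodes MDA5, which senses long double-stranded RNA. Its values ran from 2.07 through a median of 4.14 to 18.9 in non-bloom and from 0.856 through 4.89 to 21.8 in bloom. The highest was bloom 7, and the seasons overlapped almost completely (log2 difference -0.09, SE 0.48, limma adjusted p = 0.906). DHX58 encodes LGP2, which modulates MDA5 signalling. It ran from 2.49 through 4.59 to 14.9 in non-bloom and from 2.19 through 5.66 to 21.5 in bloom (0.41, SE 0.41, adjusted p = 0.479 by limma). DDX60, a helicase of the same response, was low in most dolphins: 0.238 through 1.20 to 10.8 in non-bloom and 0.367 through 0.571 to 21.8 in bloom. Bloom 7 was again the highest, at 18.7 times the median over all dolphins (log2 difference between seasons -0.14, SE 0.60, limma adjusted p = 0.882). DDX58, which encodes RIG-I, lay between 0 and 0.527 and was too low to test.

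STAT2, a transcription factor activated at the interferon receptor, was 40.6 ± 11.4 (SD, n = 8) in non-bloom and 34.0 ± 12.1 (SD, n = 9) in bloom (log2 difference -0.28, SE 0.21, limma adjusted p = 0.337). IRF9, its DNA-binding partner, was 14.7 ± 5.88 (SD, n = 8) and 23.0 ± 12.8 (SD, n = 9), with bloom 7 highest at 51.1 (0.52, SE 0.30, limma adjusted p = 0.209). IRF7, which drives interferon alpha genes, ran from 12.3 through 21.9 to 33.8 in non-bloom and from 10.9 through 20.5 to 113 in bloom. The high value belonged to bloom 9, and the medians of the seasons were close (0.21, SE 0.37, limma adjusted p = 0.696). IRF1, a factor induced chiefly by interferon gamma, ran from 5.54 through 8.23 to 38.6 in non-bloom and from 3.09 through 8.85 to 27.7 in bloom, with non-bloom 8 highest (0.19, SE 0.42, limma adjusted p = 0.764). TRIM25, the ligase that activates RIG-I, was 2.67 ± 0.827 (SD, n = 8) in non-bloom and 6.19 ± 4.07 (SD, n = 9) in bloom. Its difference of 0.73 (SE 0.35) did not pass by limma (adjusted p = 0.14), but passed by limma without bloom 8 (adjusted p = 0.0461). On the recovered reads edgeR gave 1.23, which did not pass (adjusted p = 0.0589). DESeq2 also gave 1.23, which passed (adjusted p = 0.0211).

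ISG15, a ubiquitin-like protein strongly induced by interferon, showed how single dolphins set the group means. Its values in non-bloom dolphins 1 to 8 were 4.93, 17.7, 19.8, 2.81, 3.80, 3.18, 2.87 and 35.1. The 9 bloom dolphins, in order, had 1.34, 5.35, 4.62, 3.02, 8.16, 4.85, 42.9, 3.42 and 195. Bloom 9 was 40.3 times the median over all dolphins, and most dolphins of both seasons lay below 10. The bloom mean of 29.9 ± 63.4 (SD, n = 9) exceeded the non-bloom mean of 11.3 ± 11.9 (SD, n = 8), but the log2 difference was 0.19 (SE 0.75, limma adjusted p = 0.87). Without bloom 5, 6 and 9 it was -0.40. ISG20, an exonuclease, ran from 0.159 through 0.80 to 6.39 in non-bloom and from 0.134 through 1.17 to 18.3 in bloom, again with bloom 9 highest (0.22, SE 0.55, limma adjusted p = 0.789).

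The OAS genes encode sensors that activate RNase L. OAS1 spanned 254081 to 263497 and OAS2 268823 to 286841 of GeneScaffold_3187. OAS1 was 1.75, 10.3, 32.9, 0.998, 3.80, 2.42, 2.87 and 26.2 in non-bloom dolphins 1 to 8. Bloom dolphins 1 to 9 had 1.40, 3.50, 2.05, 2.69, 10.2, 4.12, 46.7, 1.38 and 17.7. Its high dolphins were spread over both seasons, and the means were nearly equal at 10.1 ± 12.4 (SD, n = 8) and 9.97 ± 14.8 (SD, n = 9) (log2 difference -0.08, SE 0.66, limma adjusted p = 0.941). OAS2 ran from 0.891 through 1.25 to 5.68 in non-bloom and from 0.461 through 0.796 to 7.86 in bloom. Its difference was -0.45 (SE 0.36, limma adjusted p = 0.367). On the same reads edgeR gave -0.52 (adjusted p = 0.55). DESeq2, with its default replacement of outlying counts, called OAS2 lower at -1.55 (adjusted p = 0.0106). OASL, a related protein without the enzyme activity, ran from 0.159 to 7.00 in non-bloom and from 0 to 9.10 in bloom (-0.33, SE 0.44, limma adjusted p = 0.595).

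The IFIT genes encode proteins that bind foreign RNA ends. IFIT1 spanned 35875 to 37304 and IFIT5 44754 to 53791 of scaffold_116101. IFIT1 was 0.954, 6.53, 23.3, 0.561, 1.16, 0.764, 1.49 and 30.7 in non-bloom dolphins 1 to 8. In bloom the values of dolphins 1 to 9 were 0.122, 1.45, 0.0733, 1.14, 1.19, 0.848, 3.42, 0.329 and 16.0. Non-bloom 8, non-bloom 3 and bloom 9 stood above the others, and bloom 7 at 3.42 did so far less than for OAS1 or RSAD2 (log2 difference -0.91, SE 0.66, limma adjusted p = 0.319). IFIT5 varied little, from 15.3 to 32.2 in non-bloom and 11.1 to 23.7 in bloom (-0.15, SE 0.18, limma adjusted p = 0.534). The SD within groups on the log2 scale was 1.51 for IFIT1 and 0.354 for IFIT5. Families such as IFIT, OAS, MX and GBP hold similar copies, and the counting of reads shared between copies was not given in the sources used here.

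Other antiviral effectors overlapped between the seasons as well. EIF2AK2 encodes PKR, a kinase that halts translation on double-stranded RNA, and was 10.2 ± 4.53 (SD, n = 8) in non-bloom and 10.5 ± 6.37 (SD, n = 9) in bloom. The MX GTPases, known from genome comparisons to have lost function in toothed whales, were low: MX1 reached 2.79 in non-bloom and 2.11 in bloom, and MX2 reached 2.25 and 8.56. PARP9, a partner of PARP14 in ADP-ribosylation, was 3.57 ± 2.16 (SD, n = 8) and 4.58 ± 3.30 (SD, n = 9). PARP14 ran from 1.43 through 4.35 to 26.0 in non-bloom and from 0 through 4.03 to 35.0 in bloom. BST2 encodes tetherin, which holds budding virus at the membrane, and was 2.33 ± 1.62 (SD, n = 8) and 4.85 ± 5.26 (SD, n = 9). IFI35 was 10.0 ± 3.61 (SD, n = 8) and 11.1 ± 6.37 (SD, n = 9). IFI6 lay between 0.0637 and 2.29 and was not tested. The limma adjusted p of the 7 of these that were tested ran from 0.175 for MX1 to 0.961 for IFI35.

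The largest SD within groups on the log2 scale belonged to CXCL10 (2.55) and GBP1 (1.93), which are also induced by interferon gamma. CXCL10, a chemokine that draws activated T cells, was 0.159, 1.29, 29.8, 1.43, 1.16, 1.59, 0.239 and 268 in non-bloom dolphins 1 to 8. The corresponding bloom values were 1.10, 1.85, 1.69, 0.47, 1.59, 1.58, 20.6, 0.395 and 203. Thus 13 of the 17 dolphins lay at 1.85 or below, while non-bloom 8 stood at 169.9 times the median over all dolphins and bloom 9 followed it. GBP1, a GTPase that attacks membranes around pathogens, was 0.795, 2.51, 10.3, 1.37, 2.43, 0.637, 0.419 and 150.2 in non-bloom dolphins 1 to 8. For bloom dolphins 1 to 9 they were 0.304, 4.23, 2.35, 0.336, 5.18, 3.03, 30.5, 0.461 and 15.4. Again non-bloom 8 was far above the rest, with bloom 7 and bloom 9 next. The log2 difference between seasons was -0.10 (SE 1.11, limma adjusted p = 0.954) for CXCL10 and -0.08 (SE 0.84, limma adjusted p = 0.954) for GBP1. TAP1, which carries peptides to class I molecules, ran from 2.86 through 6.44 to 61.1 in non-bloom and from 2.76 through 12.5 to 55.6 in bloom, with non-bloom 8 and bloom 7 highest (0.45, SE 0.55, limma adjusted p = 0.568).

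**Figure D2:**
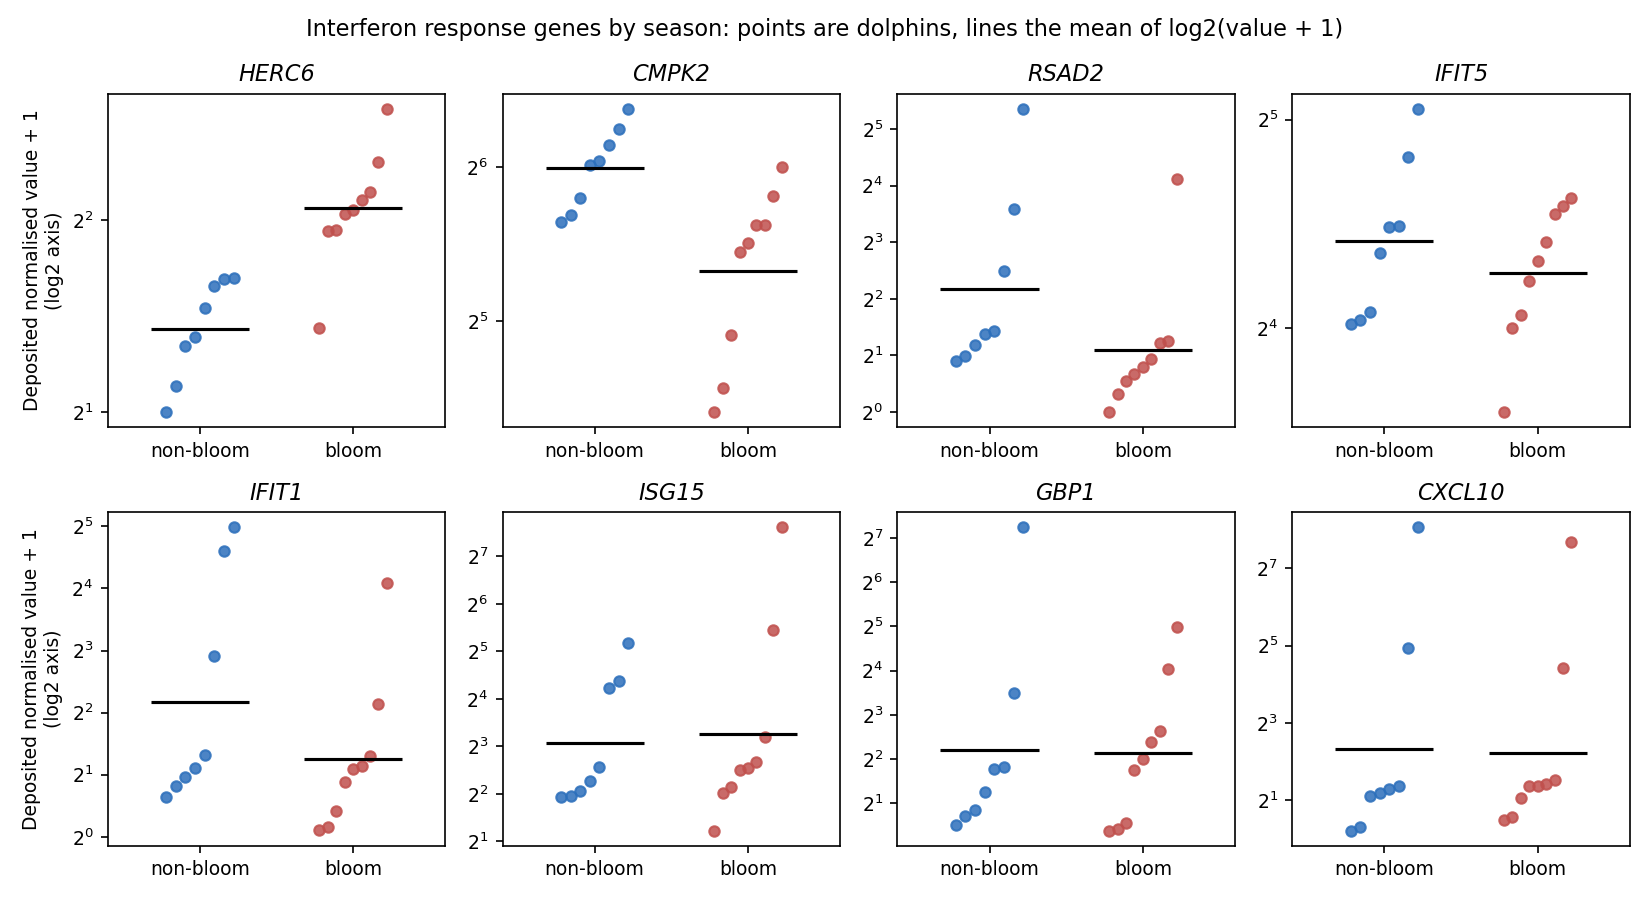
The plot by season shows the value + 1 of each dolphin (points, sorted within season) for 8 interferon response genes on log2 axes that differ between panels, with a line at the season mean of log2(value + 1). HERC6 has the smallest SD within groups on this scale, which narrows the spread of low values. In non-bloom 1 dolphin stands well above the rest for CXCL10, GBP1 and RSAD2. In bloom 1 dolphin does so for CXCL10, RSAD2, ISG15 and IFIT1.

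The members differed more between dolphins of one season than most genes did. Their SD within groups on the log2(value + 1) scale had a median of 0.896, beside 0.427 over all 13548 genes tested. It was above 1 in 11 of the 28 members, beside 4.04% of all genes. The 11 were ISG15, ISG20, IFIT1, IFIH1, DDX60, OAS1, RSAD2, PARP14, GBP1, CXCL10 and TAP1, and the range over members ran from 0.287 (HERC6) to 2.55 (CXCL10). Without bloom 9 the medians were 0.843 and 0.364, and without bloom 5, 6 and 9 they were 0.879 and 0.296. In those comparisons 11 and 12 members lay above 1, beside 3.09% and 1.30% of all genes. The SE of the season difference followed, with a median of 0.40 for members and 0.20 for all genes. The members' median level of 7.76 was below the 20.2 of all genes tested, in values not scaled for gene length. The part of level in the spread was not tested.

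**Figure D3:**
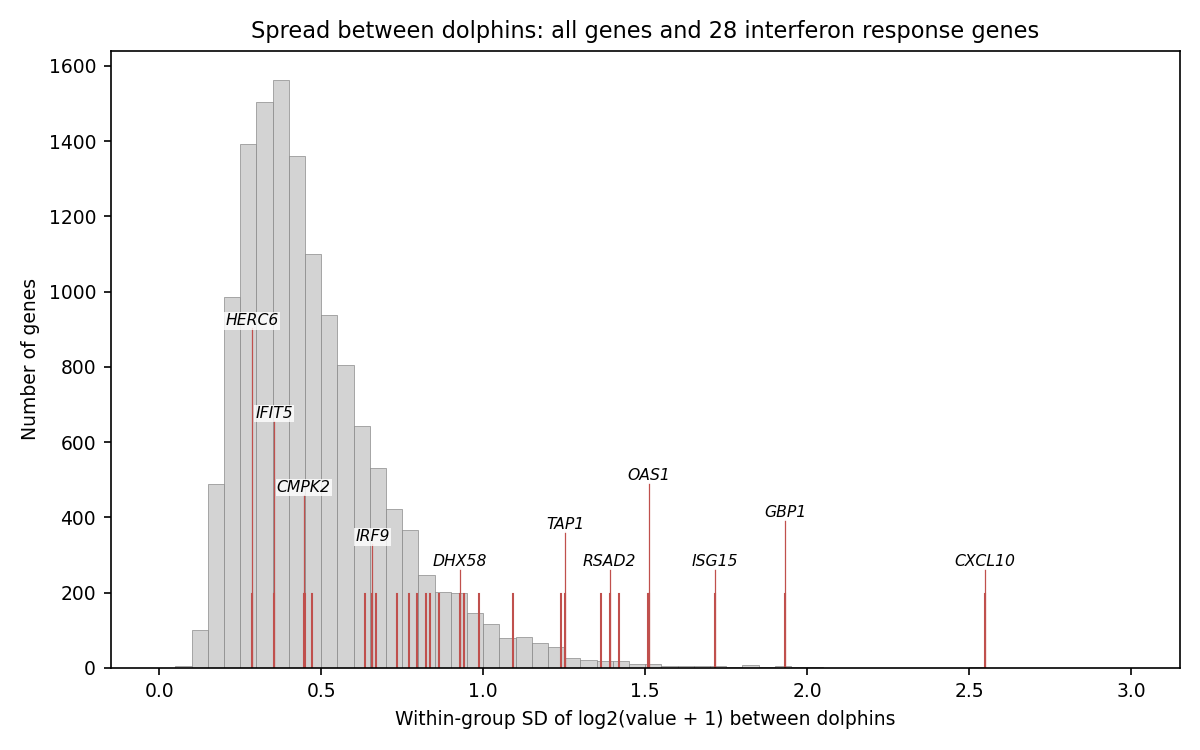
The plot of spread compares the SD within groups on the log2(value + 1) scale for all 13548 genes tested (grey histogram, number of genes on the vertical axis) and for the 28 interferon response genes (red lines, some named and raised for legibility). The red lines run from HERC6 at 0.287 to CXCL10 at 2.55, with 11 above 1.

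Bloom 7, non-bloom 8 and non-bloom 3 were high in most members. For each dolphin, the deviation of log2(value + 1) from the median of all 17 dolphins was taken gene by gene, and its median over the 30 members with reads was 1.62 in bloom 7, 1.27 in non-bloom 8 and 0.93 in non-bloom 3. It was 0.70 in bloom 9 and 0.53 in bloom 5, and the other dolphins lay between -0.64 (bloom 8) and 0.22 (bloom 6). Over all genes the same measure lay between -0.13 and 0.01 in every dolphin. Scaling the libraries and centring each gene on its median keep that measure near 0. It therefore does not show how far the median of 30 genes can lie from 0. Bloom 7 was among the 3 highest dolphins in 21 of the 30 members, beside 13.1% of all genes, and non-bloom 8 likewise in 21, beside 15.7%. For non-bloom 3 the count was 16, beside 15.0% of all genes. For bloom 9 it was 11 of 30, near the 30.5% of all genes that had bloom 9 among their 3 highest. The season medians of this deviation were -0.07 in non-bloom and 0.13 in bloom, with ranges of -0.36 to 1.27 and -0.64 to 1.62 that overlapped almost fully. These dolphins are described one by one, and no groups were formed from them.

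**Figure D4:**
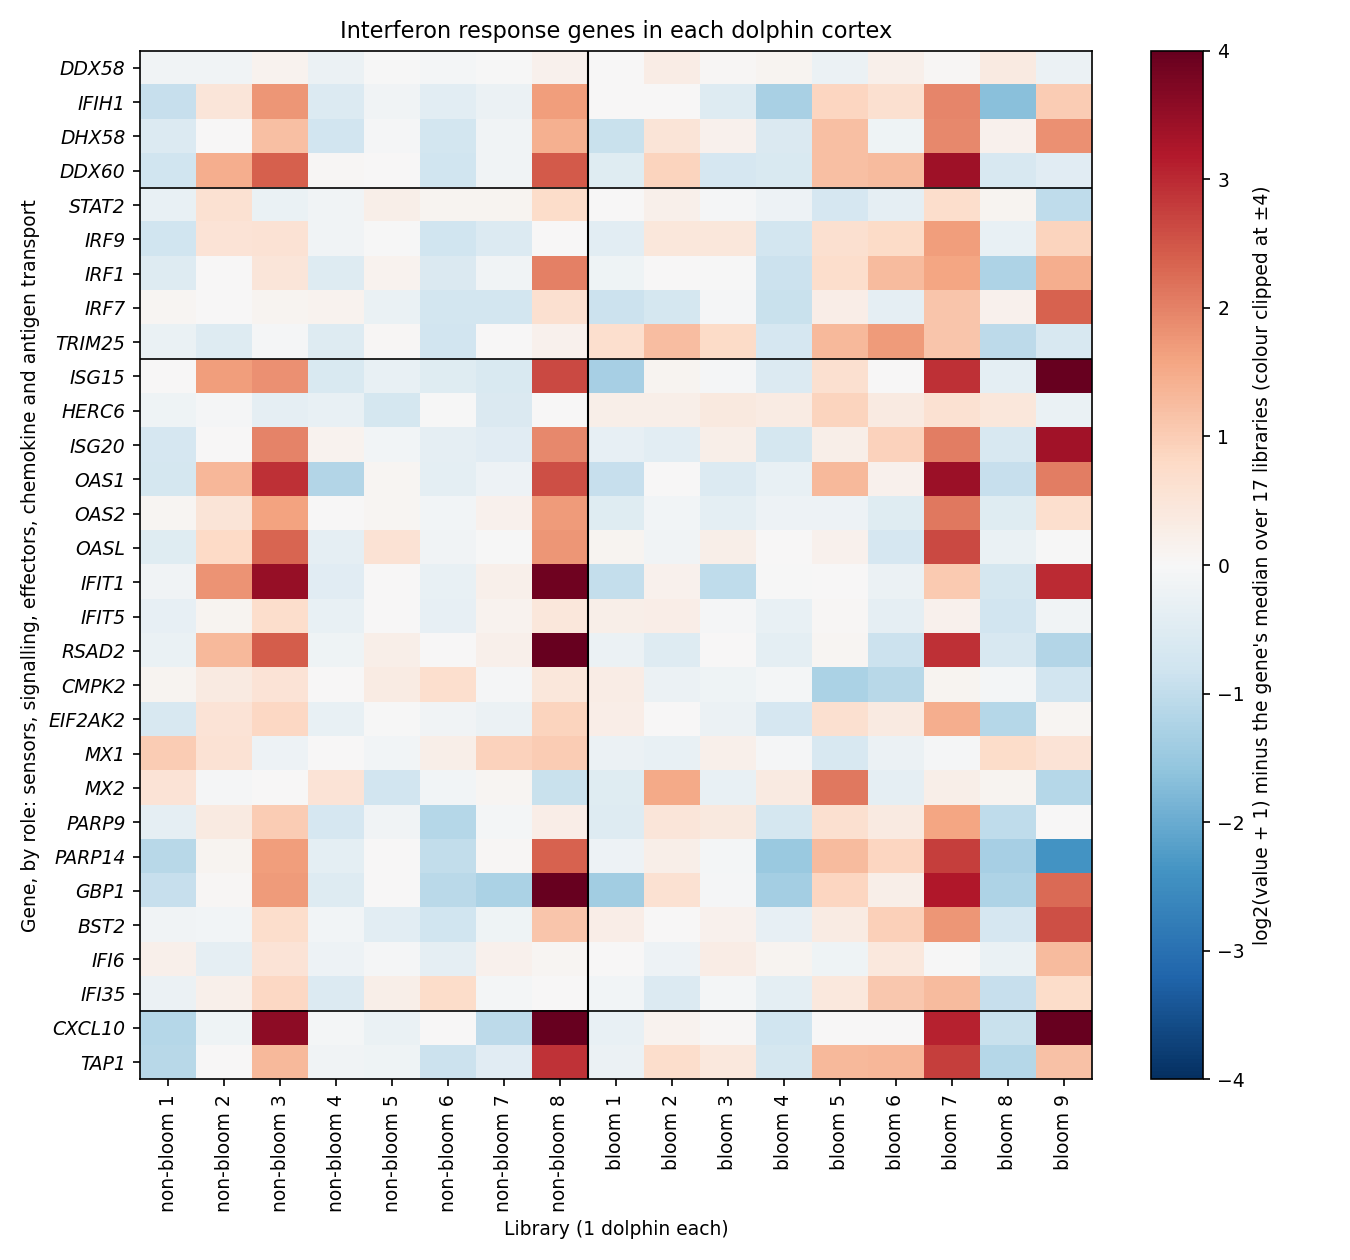
The heat map shows, for each interferon response gene with reads (vertical axis) and each dolphin (horizontal axis), log2(value + 1) minus the gene's median over the 17 dolphins, with the colour clipped at ±4. The columns of non-bloom 3, non-bloom 8 and bloom 7 are raised across most genes, whereas bloom 9 is raised in some and low in others.

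The highest values fell on different genes in different dolphins. Bloom 7 was the highest of all dolphins in 11 of the 30 members, beside 2.24% of all genes, among them IFIH1, DDX60, IRF9, OAS1, OAS2 and PARP14, and stood above the gene's own median in 28 of 30. Non-bloom 8 was the highest in 8 members, beside 4.33% of all genes, among them CXCL10, GBP1, TAP1, IRF1, RSAD2 and IFIT1. Bloom 9 was the highest in 5 of 30, beside 20.5% of all genes, so its count of highest values was not above the background. It was also the lowest in 5, for which no share over all genes was taken. It had 342 reads of ISG15, 356 of CXCL10 and 197 of IRF7, but 0 of RSAD2, 0 of PARP14 and 1 of DDX60. With 1 read worth 0.571 in bloom 9, a count of 0 allows a value of up to 1.71 there, which covers counting error only and lies above the RSAD2 values of most other dolphins.

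Immune cell markers were measured in the same libraries. The summed level of 10 microglia markers was 19.1 to 320 in non-bloom and 18.5 to 51.5 in bloom, with TMEM119, C1QA, C1QC and GPR34 absent from the rows used. Its season difference did not pass (adjusted p = 0.181 by a two-sided exact permutation test). The microglia sum was 320 in non-bloom 3, 225 in non-bloom 7, 118 in non-bloom 8, 32.2 in bloom 7 and 25.1 in bloom 9. Non-bloom 3 and non-bloom 8 were also high in member deviation, at 0.93 and 1.27. Non-bloom 7, second highest in microglia markers and highest in neutrophil markers at 276, had a member deviation of -0.11, below that of 10 other dolphins, whereas bloom 7 had the highest deviation with neutrophil markers at 1.96. The summed neutrophil level was lower in bloom (8.08 against 70.5, adjusted p = 0.00329 by a two-sided exact permutation test). The T and natural killer markers were also lower in bloom (adjusted p = 0.00271, same test), with CD3G supplying most of the sum and CD3D, CD3E and CD8A near 0. The monocyte and macrophage sum (mean 108 in non-bloom, 162 in bloom) did not pass that test (adjusted p = 0.618). Nor did the B and plasma cell sum (adjusted p = 0.971, same test). The part of these cells in the members' levels was not tested.

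**Figure D5:**
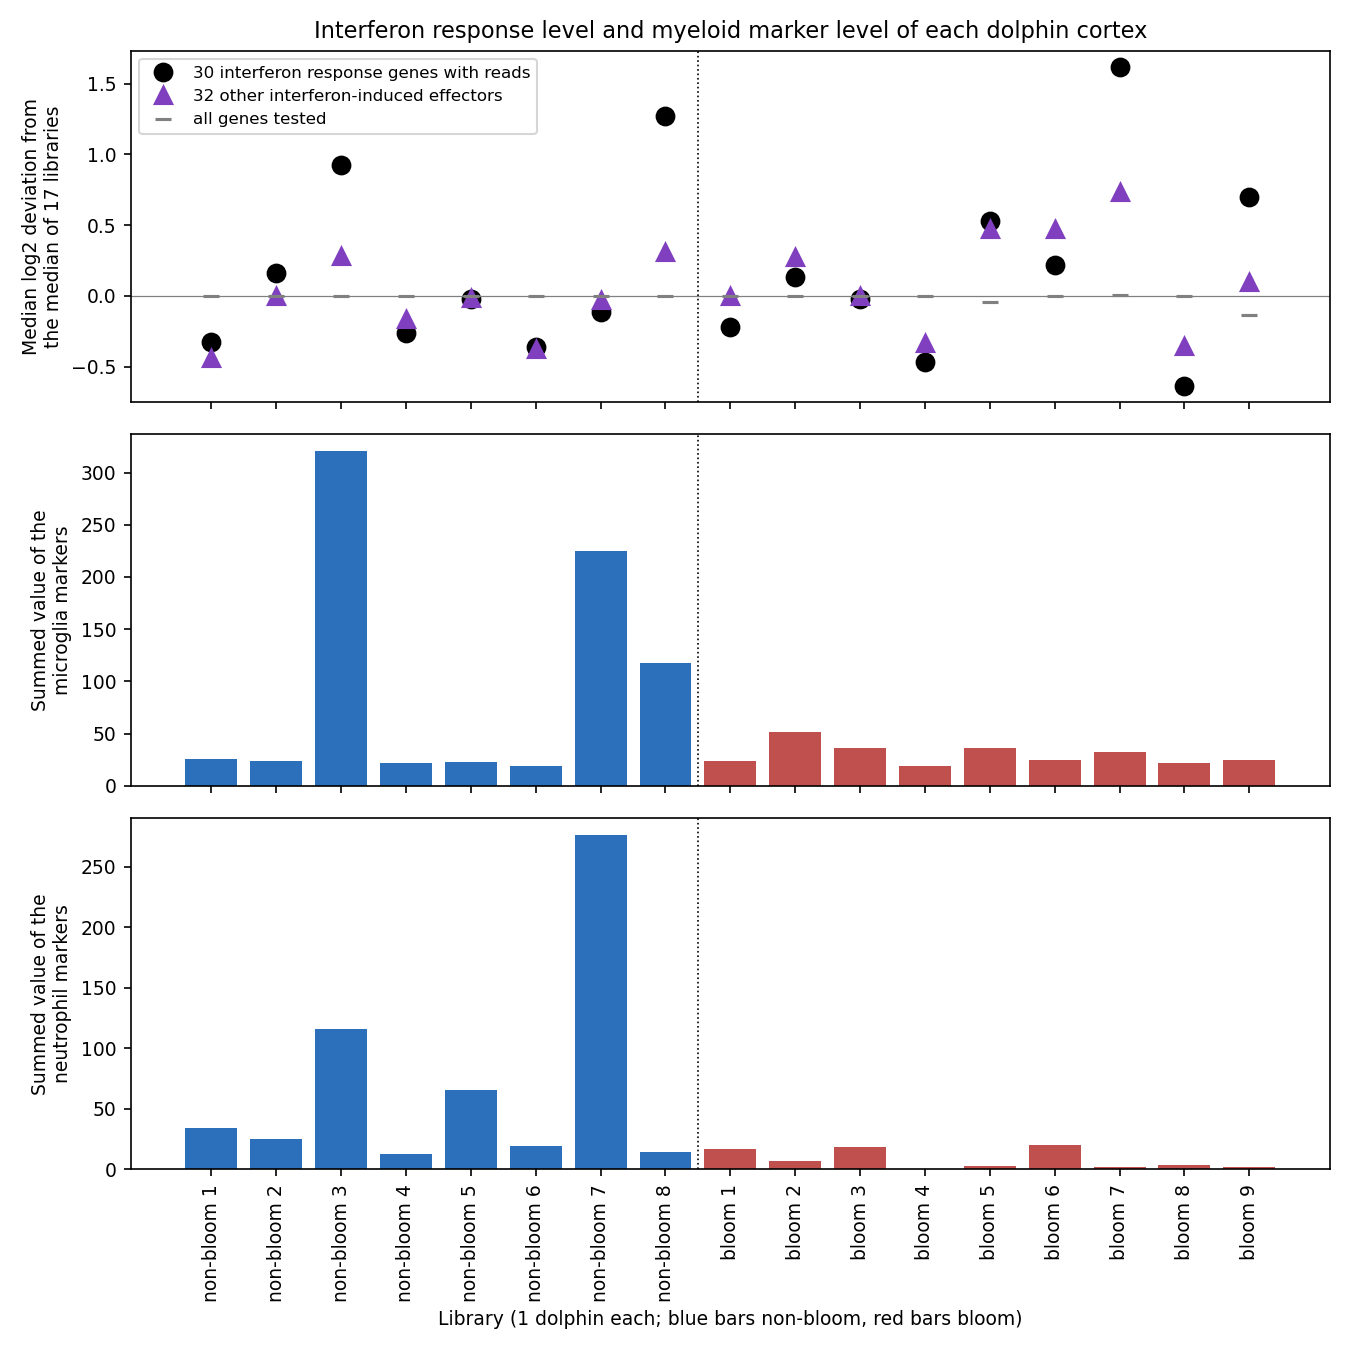
The plot by dolphin sets the median log2 deviation of the interferon response genes (circles), 32 other interferon-induced effectors (triangles) and all genes tested (dashes) above bars of the summed levels of microglia and neutrophil markers in each of the 17 dolphins. Bloom 7 has the highest deviation (1.62) with a microglia sum of 32.2 and a neutrophil sum of 1.96, and non-bloom 7 has 225 and 276 with a deviation of -0.11. Non-bloom 3 and non-bloom 8 have microglia sums of 320 and 118 with deviations of 0.93 and 1.27.

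The rest of the pathway was read from 6 lists that share no gene with the members. No interferon ligand could be tested: IFNB1, IFNK and IFNG had rows without reads, IFNL1 had 5 reads in all, and the other 8 names had no row. Over the other lists, 3 of 82 tested genes passed by limma, or 3.66%, beside the 9.16% of all genes. Their median log2 difference was 0.15.

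Of 11 receptor and kinase genes, 1 fell and 0 rose. JAK1, the kinase shared by all interferon receptors, was 140.2 ± 17.1 (SD, n = 8) in non-bloom and 99.5 ± 22.3 (SD, n = 9) in bloom (log2 difference -0.51, SE 0.14, limma adjusted p = 0.0397), and edgeR called it too.

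Of 32 other interferon-induced effectors, 1 rose and 0 fell. UBA7, the enzyme that activates ISG15, was 4.53 ± 1.05 (SD, n = 8) in non-bloom and 8.77 ± 3.67 (SD, n = 9) in bloom (log2 difference 0.75, SE 0.22, limma adjusted p = 0.0445). By edgeR 2 genes of this list passed, UBA7 and IFITM5, and by DESeq2 3, these and IRF2; IFITM5 and IRF2 are named after their values were seen. IFITM5 is known mainly from bone, and it was 4.12 ± 1.90 (SD, n = 8) in non-bloom and 18.7 ± 18.9 (SD, n = 9) in bloom, with log2 differences of 1.40 by limma (adjusted p = 0.0729), 2.13 by edgeR (adjusted p = 0.0371) and 2.21 by DESeq2 (adjusted p = 0.00224). Its highest dolphins were bloom 5, 9 and 6. The median difference of this list was 0.21, and 23 of its 32 genes were positive. Its median deviation was also highest in bloom 7, at 0.74, with 0.31 in non-bloom 8, 0.28 in non-bloom 3 and 0.10 in bloom 9. Of 12 class I antigen processing genes, 1 fell and 0 rose. TAPBP encodes tapasin, which loads peptide onto class I molecules, and was 212 ± 34.9 (SD, n = 8) in non-bloom and 130.3 ± 50.1 (SD, n = 9) in bloom (-0.79, SE 0.23, limma adjusted p = 0.0429); edgeR called no gene of this list and DESeq2 called 3. By limma 0 of 14 sensing and adaptor genes passed, with 4 at an unadjusted p under 0.05, 0 by edgeR and 2 by DESeq2. Likewise 0 of 13 negative regulators passed by limma, with 1 at an unadjusted p under 0.05, and 0 by edgeR or DESeq2.

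The calls of JAK1, UBA7 and TAPBP lay close to the threshold. Without bloom 5, 6 and 9 the log2 difference was -0.33 for JAK1 (limma, adjusted p = 0.0988), 0.56 for UBA7 (adjusted p = 0.157) and -0.42 for TAPBP (adjusted p = 0.0982), so 0 of 82 passed. With the neuron marker level as a covariate 0 of 82 passed by limma as well, in a fit where few of all genes passed. When dolphins were left out 1 at a time, JAK1 passed only without non-bloom 4 or bloom 1, 3, 4, 8 or 9, UBA7 only without bloom 1, 3, 4 or 8, and TAPBP only without bloom 1, 3, 4, 8 or 9. In these fits the log2 difference stayed between -0.57 and -0.44 for JAK1, between 0.66 and 0.87 for UBA7 and between -0.87 and -0.67 for TAPBP.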

How the data were processed

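RNA from about 100 mg of cortex (600 ng input, 14 PCR cycles, median RNA integrity number 9.1) was sequenced, per the labels' protocols. The tools listed in the submitters' processing notes are STAR 2.5.2a and Trim Galore 0.6.1. How reads were counted, on which build and annotation, was not given in the sources used here. Each deposited signal is a normalised value of 1 gene in 1 library. All nonzero values (100%) were whole multiples of the value of 1 read within 0.01 reads, and the divisors equalled library sizes scaled by the trimmed mean of M values as recomputed here, so the signal is CPM on that size. A floor of 3 reads equals 0.158 to 1.71.

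Genes were kept by filterByExpr on the recovered reads (minimum count 10, minimum total 15): 13548 of 21265, of which 3723 had no reads. limma-trend on log2(value + 1), season as the only term, was the main test, and adjusted p under 0.05 passed. Fold differences of low genes are understated on that scale. edgeR on the recovered reads, an alternative, called 1123 genes. Marker and depth differences were tested by exact permutation over dolphins, adjusted over 12 measures. The alternatives were a pseudocount of 0.1, no filter, a minimum of 1 in 8 libraries, relative log expression scaling, DESeq2, a covariate for neuron marker level, and fits without bloom 5, 6 and 9 or without each dolphin; for the pathway lists these were chosen after seeing the data. The named genes are the members and up to 4 passing genes of each pathway list; 1 other gene of the rule is not reported here and stays in the fits and counts. Members and lists were chosen with earlier results of these data known. In simulated data 200 genes were changed, of which 194 were among the 13458 that passed the filter. The limma fit found 52.3% of 88 changes of 1 on the log2 scale and 92.5% of 106 changes of 2, with 3 false calls among 147. The changed genes were drawn at random from all genes kept. These rates do not carry over to the members, whose median SE was 0.40 beside 0.20 over all genes. No libraries matched within sampling noise: chi-square per gene was at least 17.0 over all pairs. The software was limma 3.58.1, edgeR 4.0.16 and DESeq2 1.42.0 in R 4.3.3. p-values measure the spread between these dolphins. The reference tables at hand hold no sequences.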

Additional observations from a re-analysis of the deposited data

Results flagged for a closer look

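In 23 of 60 gene and season combinations the highest dolphin stood apart: its gap to the next dolphin, divided by the range of its group, was above Dixon's 95% critical value. The gap and range were taken in CPM. For normally distributed values about 1 of 20 groups would pass, and the values here were not tested for that. Over all genes tested, 12.5% of the combinations passed the same rule, a lowest dolphin standing apart included. Bloom 7 was that dolphin in 12 of the 30 members, beside 0.229% of all genes, and non-bloom 8 in 5, beside 0.443%. Bloom 9 was that dolphin in 6 of 30, beside 12.3% of all genes. The flags are therefore set beside these shares of all genes and not against 1 in 20.

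Bloom 7 stood apart for IFIH1 at 21.8, DDX60 at 21.8, IRF9 at 51.1, OAS1 at 46.7, OAS2 at 7.86 and OASL at 9.10. It did so too for RSAD2 at 16.4, EIF2AK2 at 25.2, PARP9 at 12.2, PARP14 at 35.0, GBP1 at 30.5 and TAP1 at 55.6. Non-bloom 8 stood apart for IRF1 at 38.6, RSAD2 at 40.1, GBP1 at 150.2, CXCL10 at 268 and TAP1 at 61.1. Bloom 9 stood apart for IRF7 at 113, ISG15 at 195, ISG20 at 18.3, IFIT1 at 16.0 and CXCL10 at 203. Its IFI6 value of 2.29, also apart, rested on 4 reads.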

How the results depend on the processing

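No paired analysis was possible because the replicate numbers only follow the order of deposition. Over 25 alternatives, 598 of 695 member values kept their direction and side of the threshold, 30 were weaker, 4 stronger and 63 reversed, none of HERC6 or CMPK2. Over all alternatives the adjusted p ran from 0.000518 to 0.370 for HERC6 and from 0.0225 to 0.645 for CMPK2. The causes were not tested.

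Calls among all genes, 1241 in the report, were 560 without a filter, 3170 by DESeq2, 4 with the neuron covariate, 320 without bloom 5, 6 and 9, and 61 to 2895 leaving out 1 dolphin. Members called higher were 2 by DESeq2, 0 with the neuron covariate and 0 to 2 leaving out 1 dolphin. Members called lower were 3 by DESeq2, 0 with a pseudocount of 0.1, no filter, edgeR, the neuron covariate or without bloom 5, 6 and 9, and 0 to 1 leaving out 1 dolphin. Pathway genes passing, 3 in the report, were 1 without a filter, 9 by DESeq2, 0 with the neuron covariate or without bloom 5, 6 and 9, and 0 to 8 leaving out 1 dolphin.

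The sign of the log2 difference reversed with the neuron covariate for MX2 (-0.13), PARP9 (-0.15), IFI35 (-0.20), IRF1 (-0.29) and TAP1 (-0.14). By DESeq2 it reversed for GBP1 (0.49), ISG15 (-0.36), DDX60 (0.059), EIF2AK2 (0.041) and PARP14 (0.012). By edgeR it reversed for DDX60 (0.11), EIF2AK2 (0.038) and PARP14 (0.055), while GBP1 was -1.69 and ISG15 1.30. The part of the default replacement of outlying counts by DESeq2 was not tested. Without bloom 5, 6 and 9 the sign reversed for ISG15 (-0.40), IRF7 (-0.11), ISG20 (-0.27), IFI35 (-0.27) and IRF1 (-0.23), and with a pseudocount of 0.1 for CXCL10 (0.075). Leaving out 1 dolphin gave -0.43 to 0.64 for GBP1, -0.35 to 0.49 for ISG15, -0.069 to 0.34 for IRF7, -0.14 to 0.46 for ISG20 and -0.79 to 0.72 for CXCL10. It gave -0.12 to 0.16 for IFI35, -0.32 to 0.13 for IFIH1, -0.51 to 0.13 for DDX60, -0.21 to 0.12 for EIF2AK2, -0.60 to 0.061 for PARP14 and -0.44 to 0.26 for OAS1. Depth limits the lowest members, above all in bloom 9, where 3 reads equal 1.71.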
